A study of Homo sapiens with 12 samples.

Results

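Small nucleolar RNAs (snoRNAs) are mostly cut out of the introns of other genes, their hosts, after splicing. C/D box snoRNAs, named SNORD, guide the methylation of ribosomal RNA, and H/ACA box snoRNAs, named SNORA, guide its pseudouridylation. Some hosts encode proteins of the ribosome or of its assembly, while others, such as GAS5 and SNHG1, give a spliced RNA with no known large protein product and are best known for the snoRNAs in their introns. eIF3, the factor studied here, acts on mRNA in the cytoplasm, where it helps bring the small ribosomal subunit to the message.

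The host genes described here are 10 of the 479 genes in a table of RNA sites recovered with eIF3 after crosslinking. The cells were 293T, a line derived from human embryonic kidney. The genes were chosen by name, with their reads, annotation and conversions known, so the values that follow are a description and carry no test. The 10 genes hold 31 of the table's 1477 clusters, a cluster being a stretch of RNA covered by reads. The table groups its clusters by subunit: eIF3a, eIF3b, eIF3d and eIF3g, each with 3 libraries per the labels and 1 pooled value per cluster. What the 4 groups share is 100 µM 4-thiouridine for 14 h, crosslinking at 0.15 J per square cm, one antibody, against eIF3b, RNase T1 and a band cut from a denaturing gel. With no untreated or control library among the samples and no column for the replicate, no value has an SD, and intervals cover counting error only. Reads in clusters came to 62405 in eIF3g, 24150 in eIF3d, 19187 in eIF3b and 15132 in eIF3a. None of 16 marker genes of the 293 lineage or of other cell types had a cluster. With only 479 genes listed, their absence says nothing about the identity of the cells.

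In a RefSeq gene table of the GRCh38 assembly, 9 of the 10 genes have at least 1 named snoRNA gene inside their bounds. That table gives no strand, so the strand of the snoRNA was not checked. SNHG1 (listed as SNHG1-002) has 8 SNORD genes, GAS5 (listed as GAS5-008) has 10 and 1 SNORA gene, GNL3 has 5 SNORD genes, RPL23A has 4, RPL17 has 3 and RBMX has 1. RCC1 has 2 SNORA genes, and SNHG15 and SRCAP have 1 each. SNX29, a sorting nexin gene, holds a snoRNA gene without a SNORD, SNORA or SCARNA name in that table, so its place among the hosts rests on that entry alone. RBM39, RNF138, PCNA and CNTNAP2 also hold only an entry of this kind, and they are not counted among the other hosts below. Grouping the genes by SNORD and SNORA was done after their values had been seen.

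The genome sequence of the clusters was not used here. To show the promoter of the hosts with SNORD genes, the 30 bases just before the transcription start are given from RefSeq (GRCh38.p14). The longest run of C and T on the strand of the gene is in capitals. Many host genes are known for a 5′ terminal oligopyrimidine tract, which begins at the first transcribed base. These windows end before that base and do not show whether a host has the tract, and a RefSeq start need not be the start used in these cells.
SNHG1, chr11:62855886-62855915, minus strand: tatttaatcgTCTCCCCggggagattcgtt
GAS5, chr1:173869046-173869075, minus strand: aagagCCTCTgtcgatgccatcatgaattc
GNL3, the first of its listed starts, chr3:52685890-52685919, plus strand: CCCTCCCggtgccgccgcaaaaccagtccc
RBMX, chrX:136880726-136880755, minus strand: gtataaagtttgctgTCTCCTTTgttcgcc
RPL17, chr18:49492466-49492495, minus strand: aaatccaccgCTCTTCCTCTTTCCCTaagc
The run in RPL17 is 16 bases long, and 1.09% of the 35116 RefSeq windows of this size hold one at least as long. Runs of 8 bases in RBMX and 7 in SNHG1 and GNL3 are reached by 14.1% and 20.7% of windows, and the 5 bases of GAS5 by 49.9%. The other listed start of GNL3 has a run of 4 bases (70.8%). Of the hosts without SNORD genes, RCC1 has runs of 12 and 10 bases at its listed starts, reached by 3.39% and 6.81% of windows, SNX29 has 6 bases (31.8%) and SRCAP 3 (89.1%). Of the hosts with an entry, only RPL17 and RCC1 thus had a run of 10 bases or more. RPL23A and SNHG15 had no entry.

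The clearest feature of the host genes was how unevenly the subunits held their reads. All 10 were listed for eIF3g, where 73.3% of the table's genes were listed. There were 8 in eIF3d (background 74.3%), 5 in eIF3b (55.1%) and 3 in eIF3a (68.5%). Together they held 31077 of the eIF3g reads, 49.8% (95% Wilson interval 49.4 to 50.2). In eIF3d they held 1163 reads, 4.82% (4.55 to 5.09), in eIF3b 156 reads, 0.813% (0.695 to 0.95), and in eIF3a 71 reads, 0.469% (0.372 to 0.591). SNHG1, GAS5 and GNL3 made up 91.7% of the hosts' reads in eIF3g. Without SNHG1, a setting added after seeing the data, the hosts' share of the remaining reads was 32.1% in eIF3g and 3.0% in eIF3d.

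**Figure D1:**
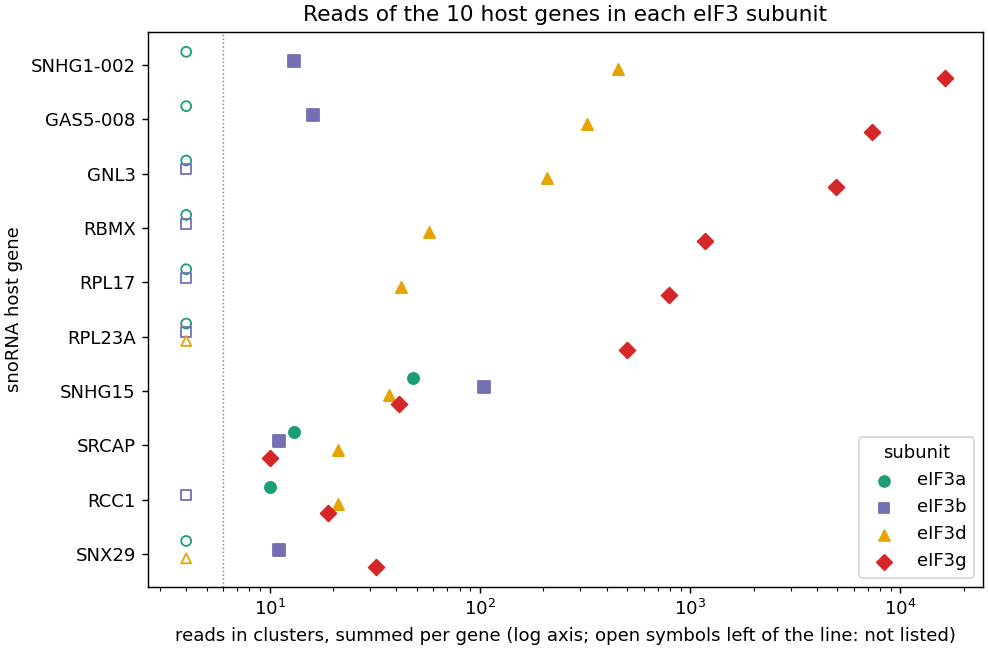
Reads summed per gene (horizontal, log axis) for the 10 host genes, with 1 symbol per subunit and open symbols for subunits in which the gene is not listed. The 6 upper genes lie between 501 and 16234 reads in eIF3g and at or below 452 in eIF3d, while the 4 lower genes stay between 10 and 105 reads in any subunit that lists them.

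Each of the 6 hosts with SNORD genes had its most reads in eIF3g. SNHG1, a noncoding RNA whose introns carry a row of C/D box snoRNAs, had 16234 reads in eIF3g, 452 in eIF3d and 13 in eIF3b, and was not listed for eIF3a. It ranked first among the genes of eIF3g, with 26.0% of the reads. GAS5, a growth-arrest-associated noncoding RNA, had 7338 reads in eIF3g, 324 in eIF3d and 16 in eIF3b, again with no entry in eIF3a. GNL3, which encodes the nucleolar protein nucleostemin, had 4929 reads in eIF3g and 209 in eIF3d. These 3 genes were thus far above the other hosts in eIF3g and also led the hosts in eIF3d.

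RBMX, an RNA-binding protein gene of the hnRNP G family, had 1179 reads in eIF3g and 57 in eIF3d. RPL17, a protein of the large ribosomal subunit, had 794 and 42. RPL23A, another protein of that subunit, had 501 reads in eIF3g and was listed for no other subunit. Neither these nor GNL3 was listed for eIF3a or eIF3b, and a missing entry gives no fold, because no source used here gives the caller's threshold. The lowest cluster of the table has 8 reads. The order of the 6 genes in eIF3g, from SNHG1 down to RPL23A, was the same in eIF3d for the 5 listed there.

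The hosts without SNORD genes were low and spread over the subunits. SNHG15, a noncoding host of SNORA9, had 105 reads in eIF3b, 48 in eIF3a, 41 in eIF3g and 37 in eIF3d. SRCAP, the ATPase of a chromatin remodeller that deposits the histone variant H2A.Z, had 21 reads in eIF3d, 13 in eIF3a, 11 in eIF3b and 10 in eIF3g. RCC1, the exchange factor for the GTPase Ran, had 10 reads in eIF3a, 21 in eIF3d and 19 in eIF3g. SNX29 had 11 reads in eIF3b and 32 in eIF3g. As shares, SNHG15 ran from 0.0657% of the reads in eIF3g (95% Wilson interval 0.0484 to 0.0891) to 0.547% in eIF3b (0.452 to 0.662). In reads, its lowest value was the 37 of eIF3d. For RCC1, the shares of 0.0661% in eIF3a (0.0359 to 0.122) and 0.0870% in eIF3d (0.0569 to 0.133) have overlapping intervals. That of eIF3g was 0.0304% (0.0195 to 0.0476).

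Scaled to the reads in clusters, the gene's share in eIF3g over its share in eIF3d was 13.9 for SNHG1 (95% exact interval 12.7 to 15.3). It was 9.13 for GNL3 (7.95 to 10.5), 8.76 for GAS5 (7.84 to 9.83), 8.0 for RBMX (6.13 to 10.6) and 7.32 for RPL17 (5.36 to 10.2). The intervals of the last 4 overlap one another, and that of SNHG1 lies above them. These are 5 of the 8 hosts listed for both subunits, and the ratio was 2 or more in 4.21% of the 261 genes listed for both, a contrast used in choosing the genes. They held ranks 2 to 6, below the long intergenic noncoding RNA RP11-329L6.1. SNHG15 with a ratio of 0.429, RCC1 with 0.350 and SRCAP with 0.184 lay on both sides of the median of 0.387 over those 261 genes.

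The hosts themselves fill so much of eIF3g that they lower every other share there, so the unscaled counts are given too. In raw reads, eIF3g over eIF3d was 35.9 in SNHG1, 23.6 in GNL3, 22.6 in GAS5, 20.7 in RBMX and 18.9 in RPL17, beside a median of 1.0 over the 261 genes, 18.8% of which reached 2. The raw ratio was 1.11 in SNHG15, 0.905 in RCC1 and 0.476 in SRCAP. Against eIF3b, the share ratio was 384 in SNHG1 (224 to 721, with 13 eIF3b reads behind it) and 141 in GAS5 (86.8 to 247, with 16). It was 0.894 in SNX29, 0.280 in SRCAP and 0.120 in SNHG15, beside a median of 0.346 over 214 genes, of which 7.48% reached 2. In raw reads, eIF3g over eIF3b was 1249 in SNHG1, 459 in GAS5, 0.909 in SRCAP and 0.390 in SNHG15, with a median of 1.12, and 28.5% reached 2. SNX29 turned from below 1 to a raw ratio of 2.91 (95% exact interval 1.43 to 6.40). It was above the median and held rank 38 of the 214 genes under both scalings. SNHG15 over eIF3d and RCC1 over eIF3a also moved from below 1 to above 1, with raw intervals of 0.693 to 1.78 and 0.841 to 4.57. Whether these ratios lie above or below 1 thus depends on the scaling. Against eIF3a, RCC1, SNHG15 and SRCAP had ratios of 0.461, 0.207 and 0.187 beside a median of 0.242 over 255 genes, of which 1.96% reached 2, and in raw reads RCC1 had 1.90, SNHG15 0.854 and SRCAP 0.769, where 19.6% reached 2. Each of these comparisons uses the same eIF3g values.

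**Figure D2:**
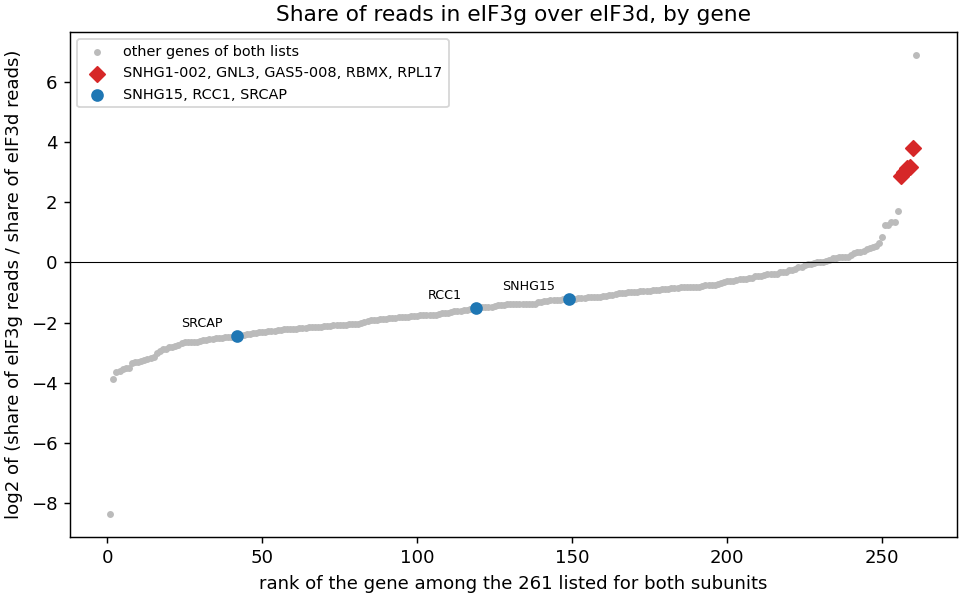
The log2 ratio of a gene's share of eIF3g reads to its share of eIF3d reads (vertical) for the 261 genes listed for both subunits, in order of the ratio (horizontal, 1 point per gene). The 5 diamonds for SNHG1, GNL3, GAS5, RBMX and RPL17 hold ranks 2 to 6 from the top, and the circles for SRCAP, RCC1 and SNHG15 lie in the body of the curve.

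By annotation, 16 of the 31 clusters were called intron, in 7 genes, and 15 were called lincRNA, in SNHG1, GAS5 and SNHG15. No cluster of the 10 genes was called a 5′ UTR, start codon, coding exon or 3′ UTR. Over the table, 15.9% of the 479 genes had a cluster called intron or noncoding, and this annotation was known when the genes were chosen. Whether the sites fall on the snoRNAs or elsewhere in the introns was not tested, since the annotation here is of another build than the hg19 positions. In eIF3g, the hosts gave 64.9% of the reads in clusters called intron or noncoding, against 28.1% in eIF3d, 3.49% in eIF3b and 2.51% in eIF3a. Cluster width, taken as end minus start, had a median of 36 nt in the hosts (14 to 65) and 24 nt in the whole table.

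Most sites of the hosts were listed at overlapping positions in more than 1 subunit. The 31 clusters fell on 13 positions, and 11 of these were listed for at least 2 subunits. The same count was not made over the whole table, so whether this is more than usual was not tested. Positions are on hg19 as the authors give them, and no source used here tells whether counting starts at 0 or 1. SNHG1, on the minus strand of chromosome 11, had 3 sites. The strongest ran from 62621139 to 62621166 in eIF3g with 14879 reads and from 62621139 to 62621163 in eIF3d with 377 and in eIF3b with 13. The second ran from 62620800 to 62620865 in eIF3g (554 reads) and from 62620805 to 62620857 in eIF3d (32 reads). At the third, the eIF3g cluster ran from 62622768 to 62622805 (801 reads) and that of eIF3d from 62622801 to 62622838 (43 reads), so the clusters met at their ends only.

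GAS5, on the minus strand of chromosome 1, had its main site from 173835116 to 173835166 in eIF3g with 6165 reads, and the eIF3b and eIF3d clusters there, with 16 and 324 reads, ended at the same position. Another site, from 173833972 to 173833991, had 1173 reads and was in eIF3g alone. The strongest site gave 91.7% of the eIF3g reads of SNHG1 and 84.0% of those of GAS5, so each of these many-snoRNA hosts was read mostly at a single place.

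**Figure D3:**
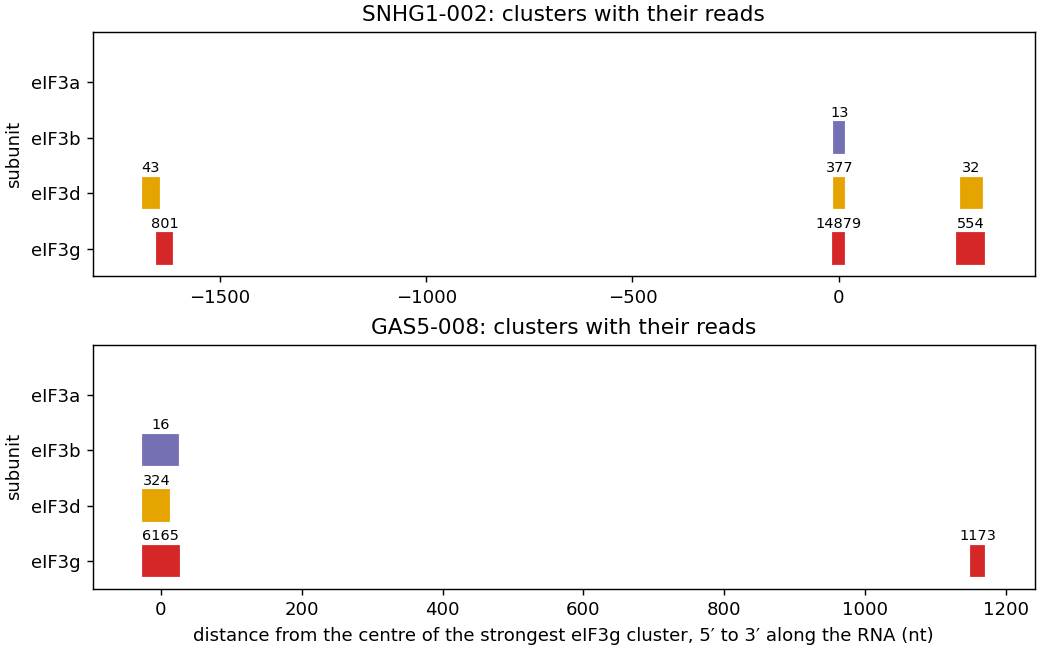
Clusters of SNHG1 and GAS5 in each subunit, drawn to scale by distance in nt from the centre of the strongest eIF3g cluster, 5′ to 3′ along the RNA, with the reads of each cluster above its bar. The centre holds clusters of eIF3b, eIF3d and eIF3g in both genes (13, 377 and 14879 reads in SNHG1), and no cluster of eIF3a is listed.

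The protein-coding hosts had 1 site each. In GNL3 (chromosome 3, plus strand) it ran from 52726758 to 52726786 in eIF3g and from 52726760 to 52726793 in eIF3d. RBMX (chromosome X, minus strand) had an end of 135961432 in both subunits, with the eIF3g cluster starting at 135961368 and that of eIF3d at 135961395. RPL17 (chromosome 18, minus strand) ran from 47015641 to 47015678 in both, and RPL23A (chromosome 17, plus strand) from 27049602 to 27049640. Among the hosts without SNORD genes, SNHG15 had the identical cluster in each of the 4 subunits (chromosome 7, minus strand, 45022770 to 45022806) and SNX29 in both subunits that list it (chromosome 16, plus strand, 12356367 to 12356381). SRCAP (chromosome 16, plus strand, 30709992 to 30710017) and RCC1 (chromosome 1, plus strand, 28835705 to 28835733) had edges within 1 nt of each other across subunits. The edges of these sites with few reads were thus nearly the same from subunit to subunit.

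A T read as C marks a uridine that was crosslinked, and such conversions are given per read. A read without a conversion carries no such mark. In eIF3g the 6 SNORD hosts had few: GAS5 had 190 conversions in 7338 reads (0.0259 per read), RPL23A 0.0419, RPL17 0.0428, RBMX 0.0458, SNHG1 960 in 16234 (0.0591) and GNL3 304 in 4929 (0.0617). By cluster, 8 of the 9 SNORD host clusters in eIF3g were below 0.1, where 6.73% of the 401 eIF3g clusters were. The exception was the second SNHG1 site, with 280 conversions in 554 reads (0.505). The other hosts stood near the median of 1.02 over eIF3g clusters: RCC1 had 1.32 conversions per read, SNHG15 1.24, SRCAP 1.0 and SNX29 0.875.

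Low conversion was not restricted to the 10 genes among the strong eIF3g clusters. Of the 8 clusters of other genes with at least the 501 reads of RPL23A, 6 were below 0.1. The 8 had a median of 0.0882 and a range from 0.0323 to 0.873. Those below 0.1 included RP11-329L6.1 and also the mRNAs BTG1 (3109 reads, 0.0946) and JUN (1735 reads, 0.0818). The threshold of reads for these 8 clusters was taken from the hosts after seeing the data. Of 13 lincRNA clusters of other genes in eIF3g, the class of SNHG1 and GAS5, 5 were below 0.1 (38.5%), with a median of 0.149. Of 30 intronic clusters of other genes, which had at most 200.0 reads, 0 were below 0.1, and their median was 1.89. Over the 60 clusters of other genes called intron or noncoding, 12 were below 0.1. The part of read number in the low values of the SNORD hosts was not tested.

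In eIF3d, 6 of the 7 SNORD host clusters were below 0.1 conversions per read, where 23.6% of the 403 clusters of that subunit were, and their genes ran from 0.0123 in GAS5 to 0.0476 in RPL17. Few conversions were common there: 29 of 55 clusters of other genes called intron or noncoding were below 0.1 (52.7%), as were all 4 clusters of other genes with at least 501 reads. That threshold was taken from eIF3g. The host clusters in eIF3d had at most 377 reads, so those 4 clusters do not match them in read number. The second SNHG1 site had 5 conversions in 32 reads (0.156). SNHG15, SRCAP and RCC1 had 0.243, 0.190 and 0.381, near or above the eIF3d median of 0.182. In eIF3b, SNHG1 had 2 conversions in 13 reads and GAS5 4 in 16, which is 0.154 and 0.250, while SRCAP had 1.09, SNHG15 1.17 and SNX29 2.0. No cluster of eIF3a, eIF3b or eIF3g had more than 2.0 conversions per read. The number of uridines in each cluster was not read. The eIF3a values of SRCAP, SNHG15 and RCC1 were 1.0, 1.17 and 1.20. Summed per gene, the listed SNORD hosts among the 10 were below the other 4 genes in eIF3b, eIF3d and eIF3g. The eIF3b values rest on few reads, and in eIF3d the 95% Poisson intervals of RPL17 (0.00577 to 0.172) and SRCAP (0.0519 to 0.488) overlap.

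**Figure D4:**
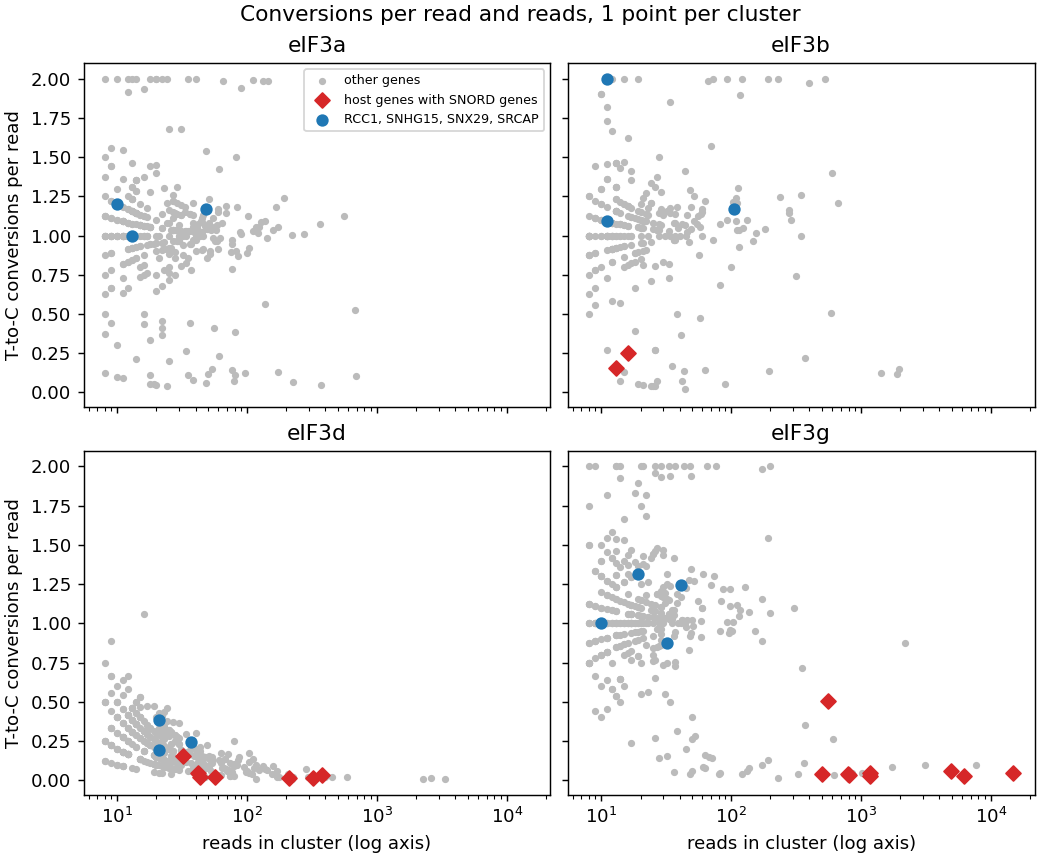
T-to-C conversions per read (vertical) against reads (horizontal, log axis), with 1 point per cluster and 1 panel per subunit. Diamonds mark the hosts with SNORD genes and circles RCC1, SNHG15, SNX29 and SRCAP. In eIF3g, 8 of 9 diamonds lie below 0.1, whereas the circles lie between 0.875 and 1.32.

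The table holds 28 genes with a named snoRNA gene inside them, 6.14% of the 456 matched to the reference, and 19 of them are not among the 10. None of the 19 had a cluster called intron or lincRNA: 15 had one in the 5′ UTR, 3 in coding exons and 1 at the start codon. Annotation was known when the 10 were chosen, and all hosts with an intron or lincRNA cluster are among them. This split therefore describes the choice and is no finding about hosts. SNORD genes lie in 7 of these and SNORA genes alone in 12. By subunit, 17 were listed for eIF3a, 16 for eIF3d, 14 for eIF3g and 11 for eIF3b.

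By summed reads they are led by EIF3A, a subunit of eIF3 itself, with 6132 reads in eIF3d, 5464 in eIF3b, 382 in eIF3a and 48 in eIF3g. DDX39B, a DEAD-box helicase, followed with 665 reads in eIF3b, 451 in eIF3d, 361 in eIF3a and 306 in eIF3g. In the order a, b, d and g of the subunits, TPT1, a growth-associated protein, had 172, 57, 112 and 368 reads. COX7C, a subunit of cytochrome c oxidase, had 127, 276, 29 and 103. ATP5B, the beta subunit of ATP synthase, had 82, 30, 66 and 136, and EIF5, the factor that activates the GTPase of eIF2, had 101, 94, 15 and 99. In raw reads, eIF3g over eIF3d reached at most 6.6 among these hosts, in EIF5, below the 18.9 of RPL17. Of the 12 listed for both eIF3d and eIF3g, 1 had a share ratio of 2 or more, EIF5 with 2.55 (95% exact interval 1.48 to 4.74), and their median was 0.481.

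Other hosts with SNORD genes had more conversions in eIF3g than the 6 described above, which were chosen with annotation and conversions known. DDX39B had 1.10 conversions per read, ATP5B 1.07 and COX7C 1.01, and each of these has SNORD genes. In eIF3d the values were 0.0222 in DDX39B and 0.0758 in ATP5B, both below 0.1 like the SNORD hosts of the 10, and 0.241 in COX7C. Of the 14 other hosts in eIF3g, 1 was below 0.1, EIF3A with 2 conversions in 48 reads. Among 23 genes fixed as the protein part and assembly factors of snoRNPs, 3 had a cluster: DKC1, the pseudouridine synthase of H/ACA particles, had 27 reads in eIF3g, 23 in eIF3d, 16 in eIF3a and 11 in eIF3b. NCL, nucleolin, had 8 in eIF3a and 16 in eIF3g, and RUVBL1, an ATPase of snoRNP assembly, had 19 in eIF3d and 28 in eIF3g. DKC1 and NCL are snoRNA hosts too.

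Genes whose reads were spread over the subunits most like those of SNHG1 were sought among the 136 other genes with at least 100 summed reads. Likeness was the Euclidean distance between profiles of 4 shares, each scaled to sum to 1, over 4 subunits. A subunit without an entry counted as 0, though a missing entry need not mean that there were no reads. Of the hosts, GNL3, GAS5, RBMX, RPL17 and RPL23A lay at distances of 0.0434 to 0.0964, and SNX29, RCC1, SRCAP and SNHG15 at 0.701 to 1.05. The nearest gene outside the hosts was RP11-329L6.1 at 0.0847, with 25 reads in eIF3d and 7707 in eIF3g and 0.0959 conversions per read in eIF3g. RefSeq lists no gene under that name, and it is not known here if a snoRNA lies inside it. The next were a piwi-class entry, FR025691, at 0.293, the mitochondrial ribosomal RNA MT-RNR1 at 0.300, FR145575, also piwi-class, at 0.352, and MT-RNR2 at 0.418. In eIF3g, conversions per read were 0.0369 in FR025691, 0.0308 in MT-RNR1, 0.111 in FR145575 and 0.555 in MT-RNR2. The 5 nearest were all called noncoding, and beyond RP11-329L6.1 they were at least 3 times as far from SNHG1 as RPL23A.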

How the data were processed

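One table of PAR-CLIP clusters was analysed. Per the file headers, it gives raw read counts and a number of T-to-C conversions for each cluster, which the authors deposited as 1 value per subunit, with its 3 libraries pooled. The submitters' processing notes name hg19, Bowtie, bedtools and cutadapt. No source used here names the cluster caller or its thresholds. Only reads inside clusters are tabulated, so depth per library is unknown. A random barcode was used in replicate 1 alone, and reads need not be independent molecules. The labels do not say whether replicates were separate cultures.

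Reads and conversions were summed per gene and subunit and divided by the subunit's reads in clusters, with Wilson intervals at 95% for shares and exact (Clopper-Pearson) intervals for ratios of 2 counts. Conversions per read have exact Poisson intervals. Clusters on one strand that overlapped by at least 1 nt shared a position. A fold of 2 and 0.1 conversions per read served to give the background over all genes or clusters. Calculations used Python 3.11.15, pandas 2.3.3 and SciPy 1.17.1. The code for raw ratios was tested on simulated counts far above the reads of these genes, and the overlap step on made-up clusters. Share ratios were not simulated, and the simulation does not show how ratios of few reads behave. Names came from RefSeq, GRCh38.p14. The strand of snoRNA genes, part of the planned definition of a host, was not applied because the reference table has none.

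The 10 genes and the lists were chosen with earlier results of these data known. Named besides them were the 6 other hosts with the most reads, the 5 genes with a profile most like SNHG1 and any snoRNP gene with a cluster. BTG1 and JUN were named for strong eIF3g clusters with few conversions. No test was run, since each subunit has 1 pooled value.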

Additional observations from a re-analysis of the deposited data

How the results depend on the processing

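Of 50 values recomputed under another setting, 14 shares or conversion values moved outside the 95% interval for counting error of the reported value. The other 36 stayed inside it or, for counts of genes or positions, within 1.5 times. The hosts' share in eIF3g, 49.8%, became 99.2 reads per 100 of the other genes' reads, 134 per 100 reads outside noncoding RNA, 51.8% over clusters reaching the subunit’s median reads, and 32.1% without SNHG1. In eIF3d the share of 4.82% became 5.44 per 100 reads outside noncoding RNA, 6.45% without EIF3A in the denominator, 5.27% over clusters reaching the subunit’s median reads, 5.40% with the strongest cluster of each gene and 3.0% without SNHG1. In eIF3b the share of 0.813% became 1.14% without EIF3A, 0.604% over clusters reaching the subunit’s median reads and 1.05% with the strongest cluster of each gene. Conversions per read over the hosts in eIF3g, 0.0540, became 0.0458 as the median over clusters and 0.0483 without SNHG1. Leaving out SNHG1 was added after seeing the data. The counts of hosts past a 2-fold share ratio (0, 2 and 5 against eIF3a, eIF3b and eIF3d) kept within 1.5 times under raw reads, a pseudocount of 1 read and a denominator without noncoding RNA, the count against eIF3b becoming 3, with SNX29 added, with raw reads and without noncoding RNA. Requiring an overlap of 0.5 of the shorter cluster left 10 shared positions in place of 11. No paired analysis was possible because replicates are pooled in the deposited values, and for the same reason leaving out each replicate and count tests per library were not run.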
